A study of Rattus norvegicus with 2 samples.

Results

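The 6 bicarbonate transporter genes Slc4a10, Slc4a2, Slc4a3, Slc4a4, Slc4a7 and Slc4a8 were followed in the hypothalamus of female Sprague Dawley rats before puberty and at puberty. They were taken by gene symbol from the deposited tables, where they account for 6 of 22777 genes and 14 of 26324 mRNA transcripts. The set was chosen because 1 Slc4a10 transcript was listed at 0 before puberty and at 3.78 FPKM at puberty, so the values of that contrast are given here as a description. The prepubertal rats were killed on postnatal day 25 and the pubertal rats on postnatal day 35, at the first estrus by vaginal smear. According to the methods, 3 rats were used per stage, whereas the tables hold 1 column per stage. Each stage was therefore treated as 1 library, the spread between rats is not known, and no difference between the stages could be tested.

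SLC4 proteins carry bicarbonate across the plasma membrane and so set the pH inside cells and in the fluid around them. The anion exchangers, Slc4a2 and Slc4a3 here, swap bicarbonate for chloride and can lower intracellular pH. The sodium-coupled transporters, Slc4a4, Slc4a7, Slc4a8 and Slc4a10, bring bicarbonate in together with sodium and defend neurons and glia against acid. In the brain, pH and chloride bear on excitability, since many channels and transmitter receptors respond to protons and GABA-A receptors pass chloride and bicarbonate.

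Values are FPKM, the mapped fragments scaled to the length of the transcript and to the depth of the library, and gene levels are sums over the listed transcripts. The number of fragments behind a value was estimated from low single-transcript genes, whose FPKM multiplied by length fell on whole steps. This gave about 20700000 fragments for the prepubertal library and 16200000 for the pubertal one. Intervals below are exact 95% Poisson intervals of the estimated fragment numbers. They cover counting error only, not the spread between rats, and are approximate for genes with several transcripts. Differences are log2 of (FPKM + 1) at puberty over (FPKM + 1) before puberty.

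The sodium-coupled transporters were lower in the pubertal library, and the anion exchangers were at nearly the same level in both. The 4 sodium-coupled genes together summed to 189.8 FPKM before puberty and 164.9 FPKM at puberty, a ratio of 0.869. Of the difference of -24.8 FPKM, -14.2 FPKM came from a single Slc4a10 transcript, ENSRNOT00000068238. The anion exchangers summed to 44.0 and 43.5 FPKM, a ratio of 0.988. No gene of the 6 was past 2-fold in FPKM + 1, a size that 0.681% of all 22777 genes reached. All 6 genes were below their prepubertal value, beside 51.1% of the 14029 genes with at least 1 FPKM in one library. When the libraries were scaled to equal medians, Slc4a2 and Slc4a3 turned to log2 differences of 0.04 and 0.05, and the other 4 genes remained lower. The same scaling moved the median log2 difference of the 14029 genes from -0.0065 to 0.052, so Slc4a2 and Slc4a3 were not above it.

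Slc4a10, a sodium-coupled transporter of neurons and choroid plexus, was, with Slc4a4, among the 2 most abundant of the 6 genes. It was listed at 88.6 FPKM in the prepubertal library (interval 86.0 to 91.2) and at 74.7 FPKM in the pubertal library (72.2 to 77.4), a log2 difference of -0.24. Taken by its highest transcript alone, the difference was -0.039. Without ENSRNOT00000068238 the gene was at 63.7 and 64.0 FPKM, a pubertal sum that includes the 3.78 FPKM of the transcript that chose the set. Its level was above that of 94.2% of all genes before puberty and 92.9% at puberty. The intervals of the stages did not overlap, and 17.4% of the genes with at least 1 FPKM had a log2 difference as low or lower.

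Slc4a4, the electrogenic sodium bicarbonate cotransporter of astrocytes, stood close to Slc4a10 in both libraries. Its FPKM was 86.5 before puberty (84.3 to 88.8) and 78.2 at puberty (75.8 to 80.6), a log2 difference of -0.14, which was -0.080 after scaling to equal medians and -0.22 for its highest transcript alone. The intervals of Slc4a10 and Slc4a4 overlapped at each stage, so their order was not resolved by counting. Together these genes made up 74.9% of the summed FPKM of the 6 before puberty and 73.4% at puberty.

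The other sodium-coupled genes were expressed far below that level. Slc4a8, a sodium-driven chloride/bicarbonate exchanger found at synaptic terminals, had 9.34 FPKM before puberty (8.60 to 10.1) and 7.57 FPKM at puberty (6.82 to 8.38). Its log2 difference of -0.27 was the largest among the summed genes, and its intervals did not overlap. With the pubertal library scaled to equal medians, the intervals of Slc4a8 would overlap. Slc4a7, an electroneutral sodium bicarbonate cotransporter, had 5.33 FPKM (4.81 to 5.89) and 4.44 FPKM (3.90 to 5.03), a log2 difference of -0.22, which was -0.071 for its highest transcript alone. Slc4a7 was the lowest of the 6 genes at both stages, and its intervals overlapped. The pubertal to prepubertal ratio of 0.833 had a counting interval of 0.707 to 0.980. Scaled to equal medians the ratio was 0.872, and its interval would take in equal levels at both stages.

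Of the anion exchangers, Slc4a3, known from brain and heart, was listed at 33.4 FPKM before puberty (32.1 to 34.7) and 33.0 FPKM at puberty (31.6 to 34.5). Slc4a2, which most cell types express, was listed at 10.7 FPKM (9.95 to 11.4) and 10.5 FPKM (9.69 to 11.3). The log2 differences were -0.01 and -0.02, and the pubertal to prepubertal ratios had counting intervals of 0.932 to 1.05 for Slc4a3 and 0.887 to 1.09 for Slc4a2. Before puberty Slc4a2 and Slc4a8 had overlapping intervals, and at puberty Slc4a2 was above Slc4a8.

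**Figure D1:**
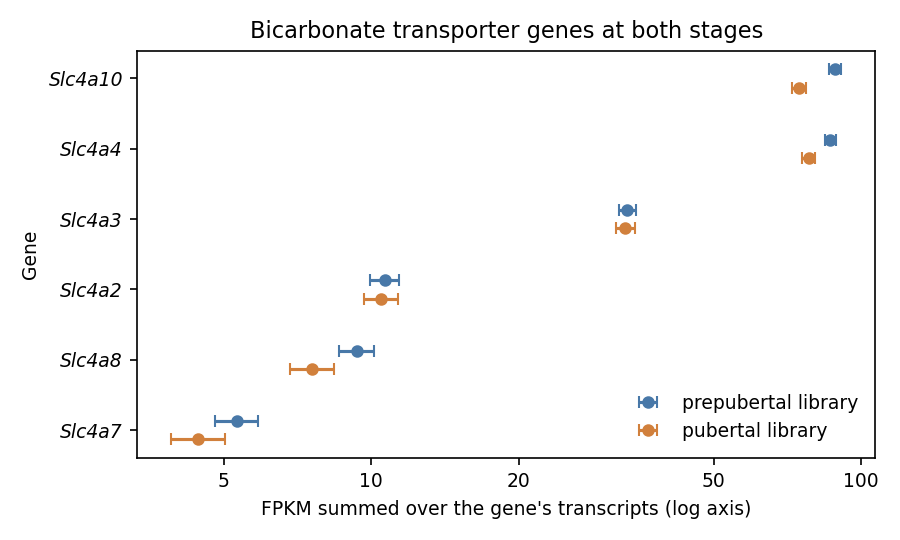
FPKM summed per gene (log axis) for the 6 transporter genes in the prepubertal (blue) and pubertal (orange) library, 1 library each; bars are 95% Poisson intervals of the estimated fragments and cover counting error only. The points of Slc4a3 and Slc4a2 lie almost on each other, while those of Slc4a10 go from 88.6 to 74.7 and those of Slc4a8 from 9.34 to 7.57.

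The set was built around the transcripts of Slc4a10, of which the tables list 5. For comparison, RefSeq lists 13 transcripts of the gene in the GRCr8 assembly, 1 of them curated. The main transcripts, ENSRNOT00000007218 and ENSRNOT00000067545, both have a listed length of 3223 nt. The former was at 36.0 FPKM before puberty and 35.04 FPKM at puberty, and the latter at 27.6 and 25.2 FPKM. Their log2 differences of -0.04 and -0.13 were small beside those of the shorter transcripts.

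The short transcripts of Slc4a10 differed in opposite directions. ENSRNOT00000064344, of 1792 nt, is the transcript that chose the set, listed at 0 before puberty and at 3.78 FPKM at puberty, which corresponds to about 94 fragments. In the prepubertal library, 3 fragments of this transcript would have given 0.0941 FPKM. ENSRNOT00000068238, of 1468 nt, was listed at 24.9 FPKM before puberty and 10.7 FPKM at puberty, a log2 difference of -1.15. About 628 fragments stood behind the former value and 211 behind the latter. Its difference of -14.2 FPKM was larger in size than the 3.78 FPKM by which the transcript that chose the set was higher. ENSRNOT00000044638, of 3136 nt, was listed at 0 and at 0.00092 FPKM, under the value of 1 fragment at both stages.

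By length, the transcripts over 3000 nt summed to 63.7 FPKM before puberty and 60.3 FPKM at puberty, a ratio of 0.947. Those under 2000 nt summed to 24.9 and 14.5 FPKM, a ratio of 0.580, with the transcript that chose the set included. The share of the short transcripts in the FPKM of the gene was thus 28.1% before puberty and 19.4% at puberty. Fragments that lie in exons shared by several transcripts are divided between them by estimation, so the 5 values are not independent, and the deposited columns give no error of that division. A fragment of the 1468 nt transcript adds 0.0397 FPKM before puberty, against 0.0162 FPKM for a 3223 nt transcript, so the summed FPKM also depends on the transcript to which a fragment was given.

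**Figure D2:**
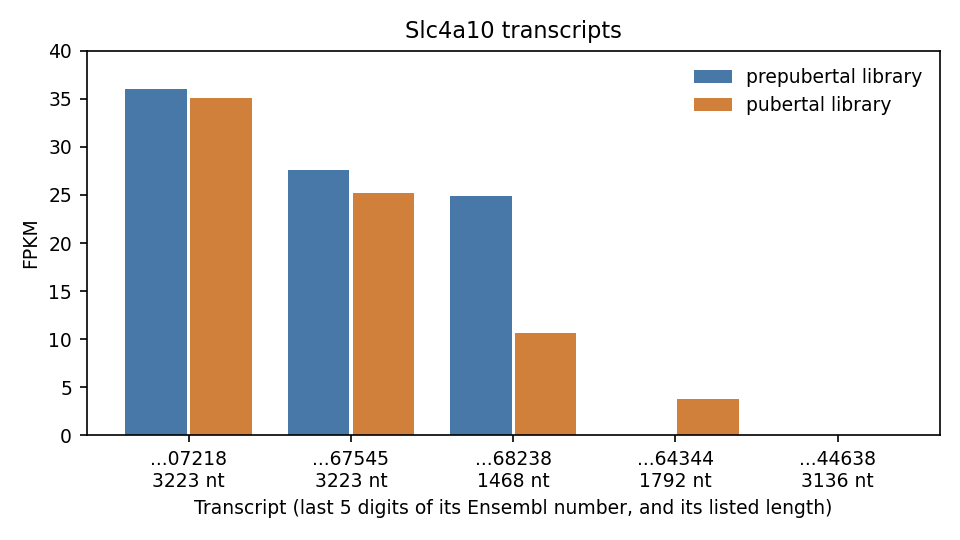
FPKM (linear axis from 0) of the 5 listed Slc4a10 transcripts in the prepubertal (blue) and pubertal (orange) library, with the last digits of the Ensembl transcript number and the listed length under each pair. The 3223 nt transcripts are near the same height at both stages, the 1468 nt transcript stands at 24.9 and 10.7, and the 1792 nt transcript appears at puberty at 3.78; no error between rats is known.

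Slc4a7, Slc4a4 and Slc4a8 also have several listed transcripts. For Slc4a7, ENSRNOT00000068171 was listed at 4.38 FPKM before puberty and 4.12 FPKM at puberty and carried 82.1% and 92.8% of the gene. ENSRNOT00000049771 was at 0.951 FPKM before puberty and listed at 0 at puberty. ENSRNOT00000008759 was listed at 0 before puberty and at 0.321 FPKM at puberty, corresponding to about 20 fragments. The minor transcripts of Slc4a7 were therefore each listed in a single library, as was the 1792 nt transcript of Slc4a10, but at lower levels.

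For Slc4a4, the transcripts differed in direction without a zero. ENSRNOT00000004391, the main transcript, was listed at 76.5 FPKM before puberty and 65.5 FPKM at puberty, a log2 difference of -0.22. ENSRNOT00000033806 was listed at 9.98 and 12.7 FPKM, a log2 difference of 0.32, and its share of the gene was 11.5% before puberty and 16.2% at puberty. For Slc4a8, both transcripts were lower at puberty. ENSRNOT00000040890 was listed at 5.95 and 4.999 FPKM and ENSRNOT00000065379 at 3.39 and 2.57 FPKM, so that the share of the former was 63.7% and 66.0%.

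Of the 14 transcripts, 2 were past 2-fold in FPKM + 1, both of Slc4a10, beside 1.25% of all 26324 mRNA transcripts. As the set was chosen by this contrast, nothing is read from that count. One was higher at puberty, a direction that 0.589% of all mRNA transcripts took past 2-fold, and the other lower, as 0.665% were. Over the 14 transcripts, 10 were lower and 4 higher at puberty. Of the 11 with at least 1 FPKM in one library, 9 were lower and 2 higher, beside 51.4% lower and 48.6% higher of the 15511 mRNA transcripts of that level. The 4 higher include the transcript that chose the set and ENSRNOT00000044638, which stayed under 1 fragment.

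The pattern that chose the set was set beside the whole table. Among all mRNA transcripts, 46 were listed at 0 before puberty and at 1 FPKM or more at puberty, 0.175% of the total, and 62 showed the reverse, 0.236%. Among the 5874 transcripts of the 2327 genes with 2 or more listed transcripts, the numbers were 31 and 35, or 0.528% and 0.596%. Ranked by pubertal FPKM among transcripts listed at 0 before puberty, the Slc4a10 transcript came at place 11. It stood between AABR06056907.1 with 3.98 FPKM and Rpl37-ps1 with 3.74 FPKM, whose transcripts of 243 and 294 nt are much shorter. A gene with one transcript at least 2-fold up and another at least 2-fold down, as Slc4a10 was, occurred 13 times among the 2327 genes, 0.559%, a count made after the values were seen.

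The shift between transcripts was measured as the share of a gene's FPKM that was listed under other transcripts at puberty than before. It was 17.9% for Slc4a7, 13.8% for Slc4a10, 4.70% for Slc4a4 and 2.37% for Slc4a8. The median was 3.70% over the 1677 genes with several listed transcripts and at least 1 FPKM in each library. The value of Slc4a10 includes the transcript that chose the set, with 5.06% of the gene at puberty, so its place among the genes is a description from which nothing is read. Slc4a7 was above 90.3% and Slc4a10 above 85.5% of these genes, whereas Slc4a4 and Slc4a8 were near the middle, above 56.4% and 39.4%. The 17.9% of Slc4a7 was the prepubertal share of ENSRNOT00000049771, at 0.951 FPKM before puberty and listed at 0 at puberty. Its place rests on that low transcript and is a description as well.

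**Figure D3:**
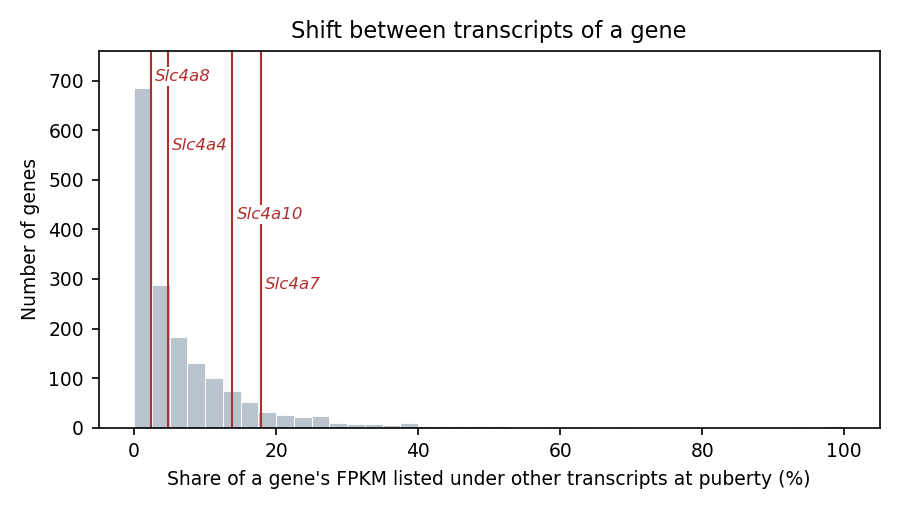
Number of genes (linear axis from 0) by the share of their FPKM listed under other transcripts at puberty, in percent, for 1677 genes with several transcripts; red lines mark Slc4a8 at 2.37, Slc4a4 at 4.70, Slc4a10 at 13.8 and Slc4a7 at 17.9. The highest bar, from 0 to 2.5, holds 685 genes, and the median is 3.70. Slc4a10 and Slc4a7 lie in the falling right part of the distribution.

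Other genes of bicarbonate and pH handling did not share one direction. All 44 genes of 5 lists were in the table, and 21 were higher and 20 lower at puberty, with 3 listed at 0 in both libraries. None was past 2-fold in FPKM + 1. For the 28 of them with at least 1 FPKM in one library the median log2 difference was -0.010. It was -0.0065 for the 14029 genes of that level and -0.18 for the 6 transporter genes, all of that level. The medians of single lists given below are over all listed genes, also those under 1 FPKM.

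Of the remaining SLC4 genes, 1 was higher and 2 lower at puberty. Slc4a1, the anion exchanger of red blood cells, was listed at 1.76 FPKM before puberty and 2.22 FPKM at puberty. Slc4a5, a sodium bicarbonate cotransporter of the choroid plexus, was at 0.401 and 0.293 FPKM and Slc4a11 at 0.434 and 0.295 FPKM. Slc4a9 was listed at 0 in both. The 6 genes described above were therefore the only SLC4 transporters with more than 5 FPKM in one library.

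The carbonic anhydrases, which make bicarbonate from carbon dioxide, included the highest values of the lists. Car2, the cytosolic enzyme of oligodendrocytes and other glia, was listed at 254 FPKM before puberty and 298 FPKM at puberty. Ca10 and Car11, members related to the enzymes by sequence that lack their activity, were at 109 and 132 FPKM and at 51.9 and 53.8 FPKM. Car8, which also lacks the activity, was at 25.8 and 22.4 FPKM. Car4 and Car14, membrane-bound enzymes that face the extracellular fluid, were at 15.6 and 12.5 FPKM and at 9.79 and 12.0 FPKM. The mitochondrial Car5b was at 5.81 and 6.60 FPKM. Of the 16 genes of the family, 8 were higher and 6 lower at puberty, with a median log2 difference of 0.00.

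Among the sodium/proton exchangers, which extrude acid without bicarbonate, 4 were higher and 5 lower, with a median log2 difference of -0.04. Slc9a9, an endosomal exchanger, was listed at 5.54 FPKM before puberty and 8.17 FPKM at puberty, a log2 difference of 0.49. Slc9a7, with 29.4 and 27.8 FPKM, and Slc9a8, with 21.2 and 23.4 FPKM, stayed closer to their prepubertal level.

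Of the 11 SLC26 anion exchangers, 7 were higher and 4 lower, with a median log2 difference of 0.05. Slc26a11 alone was above 5 FPKM, at 5.98 and 6.30 FPKM. Of the 4 monocarboxylate transporters, which carry lactate with a proton, 1 was higher and 3 lower, with a median of -0.23. Over the 2 of them with at least 1 FPKM in one library the median was -0.32. Slc16a1 was listed at 61.8 FPKM before puberty and 49.1 FPKM at puberty, a log2 difference of -0.33.

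**Figure D4:**
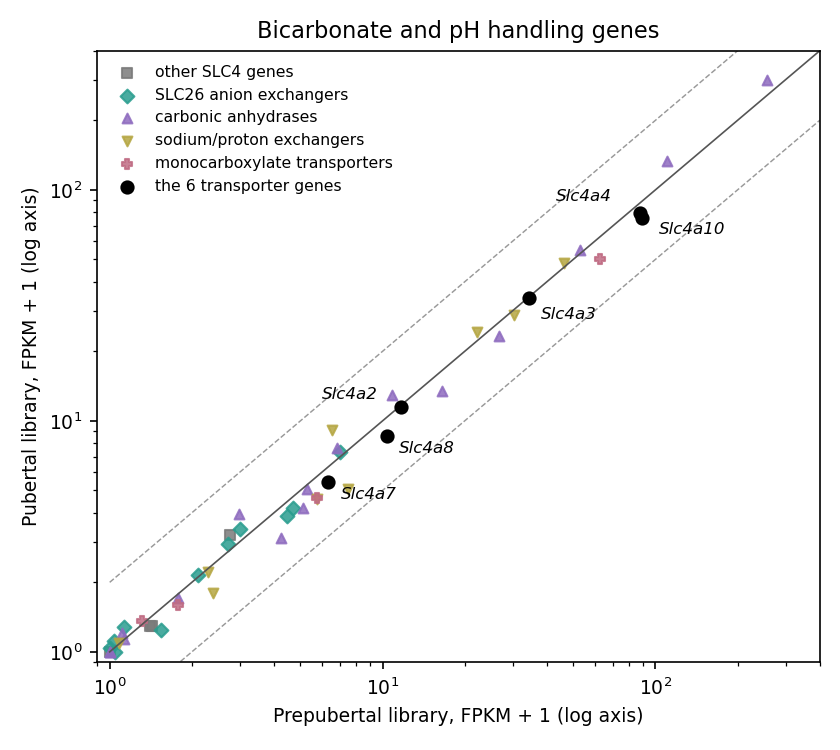
FPKM + 1 in the prepubertal (x) and pubertal (y) library, both log axes, for the 44 other genes of bicarbonate and pH handling by list (symbols) and the 6 transporter genes (black). The solid line marks equal values and the dashed lines 2-fold; all points lie between the dashed lines, with Slc4a3 and Slc4a2 on the solid line and the sodium-coupled genes below it.

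The dissection was checked with marker genes, since fewer cells of a type and less RNA per cell cannot be told apart in whole tissue. Hypothalamic genes led by Pmch, Oxt and Avp summed to 2992 FPKM before puberty and 4466 FPKM at puberty, and 14 of 18 were higher. Genes of thalamus and telencephalon led by Prkcd, Slc17a7 and Tcf7l2 summed to 165 and 117 FPKM, and 5 of 7 were lower. Neuronal genes led by Snap25, Stmn2 and Syt1 summed to 1555 and 1390 FPKM, and 7 of 8 were lower. Their median log2 difference was -0.23. Astrocyte genes led by Aldoc, S100b and Slc1a2 summed to 3016 and 3129 FPKM, and 5 of 8 were higher, with a median of 0.07. The transporter genes were at -0.27 (Slc4a8), -0.24 (Slc4a10), -0.22 (Slc4a7), -0.14 (Slc4a4), -0.02 (Slc4a2) and -0.01 (Slc4a3). By its highest transcript alone, Slc4a10 was at -0.039. The choroid plexus genes, led by Ttr, Folr1 and Otx2, summed to 42.7 and 37.8 FPKM, and 5 of 10 were lower. Of the 6 oligodendrocyte genes, which include Mbp and Mobp, 3 were higher at puberty, and red blood cell genes led by Hba1, Hbb and Hba2 summed to 6408 and 12541 FPKM, with 5 of 5 higher. No marker was listed at 0 in both libraries. The part of these tissue and cell type values in the levels of the transporters was not tested.

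By their levels in the 2 libraries, the genes most like Slc4a10 were Klhdc3, Scn2a1 and Mapt. They lay at distances of 0.03, 0.03 and 0.05 on the log2(FPKM + 1) scale. Klhdc3 was listed at 87.9 and 73.3 FPKM, Scn2a1, a neuronal sodium channel subunit, at 86.6 and 75.0 FPKM and Mapt, the microtubule-associated protein tau, at 88.4 and 77.2 FPKM.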

How the data were processed

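The authors depleted ribosomal RNA, made strand-specific paired-end libraries, aligned reads with TopHat and estimated the deposited FPKM per transcript with Cuffdiff, version 2.1.1 per the labels. The labels name build Rnor 5.0 and the methods an annotation of a later build, so no coordinates are given. How the 3 rats per stage were combined is not stated in the sources used here. Columns of the authors' comparison (ratios, p-values and q-values) were not used, nor were the lncRNA tables. FPKM came from the mRNA table; it differed from the comparison table for 13 transcripts, 0 of them among the 14 described.

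The depth was fitted on transcripts of 1000 to 6000 nt from single-transcript genes, where FPKM times length less 255 nt (prepubertal) or 250 nt (pubertal) came within 0.1 of a whole number of fragments for 95.2% of 1172 and 93.8% of 1104 low values. The share was 74.1% and 79.1% for sums over several transcripts. Depth fitting and fold counts were run on simulated data of 13387 genes. The fitted depths were close to the simulated ones, and 200 of 200 transcripts simulated past 2-fold were counted. These runs check the fit and the counting only. The depth was simulated on single-transcript genes, so the division of fragments between transcripts of a gene was not tested. A pseudocount of 1 FPKM was used, which understates differences of low transcripts. The members and lists were chosen with earlier results of these data known. Genes named were the members, list genes of at least 5 FPKM in one library or past 2-fold, the 3 highest markers of each list, the nearest neighbours in rank and level, and the 5 highest transcripts of a like pattern; the values of 3 genes that this rule names are not reported here. Alternatives were a pseudocount of 0.1, scaling to equal medians, the comparison table, the highest transcript alone, a 1.5-fold limit and other FPKM limits. Scripts ran in Python 3.11.15 (pandas 2.3.3, numpy 2.4.6), intervals came from scipy 1.17.1 and plots from matplotlib 3.10.9.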

Additional observations from a re-analysis of the deposited data

How the results depend on the processing

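With 1 library per stage, no spread between rats is known, and the depth limits low transcripts most. No paired analysis was possible because each stage has 1 library. The comparison table gave the same values for all 6 genes and 14 transcripts. With a pseudocount of 0.1 the 6 genes kept their direction, and the log2 differences of 3 of the 4 transcripts listed at 0 in one library moved most, to 5.28 for ENSRNOT00000064344 of Slc4a10 and to -3.39 for ENSRNOT00000049771 and 2.07 for ENSRNOT00000008759 of Slc4a7, from 2.26, -0.96 and 0.40. These are no bounds on a fold. With that pseudocount 4 transcripts were past 2-fold in place of 2, beside 7.21% of all mRNA transcripts, and at 1.5-fold 3 were, beside 4.76% of all mRNA transcripts. Scaling the pubertal library by 1.05 to equal medians moved Slc4a4 to -0.080 and turned the sign of 2 of 6 genes and 3 of 14 transcripts, none of them past 2-fold. Taken by the highest transcript alone, Slc4a10 was at -0.039, Slc4a4 at -0.22 and Slc4a7 at -0.071. For the remaining SLC4 genes the median of -0.06 became -0.18 with a pseudocount of 0.1 and 0.22 for the 1 gene with at least 1 FPKM, and for the monocarboxylate transporters it became -0.33 with a pseudocount of 0.1. The 46 and 62 transcripts at 0 before puberty and at puberty became 112 and 147 with 0.5 FPKM or more in the other library and 20 and 30 with 2 FPKM or more, and the latter became 35 within genes of several transcripts. The count of genes with transcripts moving apart was 64 at 1.5-fold, an alternative chosen after seeing the data.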

Other observations

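Transcripts of a pattern like that of the 1792 nt Slc4a10 transcript were listed for other genes with a further transcript of at least 1 FPKM in both libraries. The highest at puberty was a 204 nt transcript of LOC682914, listed at 0 before puberty and at 20.2 FPKM at puberty, where the gene summed to 27.9 and 40.5 FPKM. Next came a 232 nt transcript of LOC100360426 at 3.25 FPKM, in a gene with 134 and 160 FPKM. Csnk2b, the regulatory subunit of casein kinase, had an 861 nt transcript listed at 0 and at 3.12 FPKM, while the gene summed to 98.8 and 96.9 FPKM. Tln2, which links integrins to actin, had a 3393 nt transcript listed at 0 and at 2.67 FPKM, in a gene with 21.2 and 17.4 FPKM. A 327 nt transcript of LOC100364003 was listed at 0 and at 2.36 FPKM. Of these 5, the transcript of Tln2 alone was longer than that of Slc4a10.

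Among the 13 genes with transcripts past 2-fold in both directions were, chosen after their values were seen, the membrane exchanger Slc8a1 and the neurotrophin receptor Ntrk3. For Slc8a1, which trades sodium for calcium, ENSRNOT00000061940 was listed at 0 before puberty and at 1.94 FPKM at puberty, and ENSRNOT00000046246 at 7.09 and 2.12 FPKM. For Ntrk3, ENSRNOT00000047776 was listed at 2.22 and 6.89 FPKM, and ENSRNOT00000046080 went from 1.88 FPKM to a listed 0.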
